A study of Homo sapiens with 6 samples.

Results

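The mRNAs of 10 subunits of the CCR4-NOT complex were described by ribosome profiling in HEK293, a cell line of human embryonic kidney origin. The members were chosen by gene symbol, without use of any measured value, as CNOT1, CNOT2, CNOT3, CNOT4, CNOT6, CNOT6L, CNOT7, CNOT8, CNOT10 and CNOT11. Earlier results of these data were known when they were chosen. Of these, 8 were among the 8121 genes with a translational efficiency (all except CNOT3 and CNOT4), 9 were among the 9570 transcripts with ribosome occupancy along the mRNA (all except CNOT7), and 7 had both measurements.

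In ribosome profiling, lysates are digested with nuclease and the mRNA fragments shielded by ribosomes (ribosome-protected fragments, RPFs) are sequenced. There were 6 libraries, namely 3 of RPFs and 3 of total RNA taken from the same lysates, and all 6 come from HEK293 cells labelled with a control siRNA. Cycloheximide, which arrests elongating ribosomes, was added at 100 µg/ml before lysis. With 1 condition, the comparisons are between mRNAs and between positions on an mRNA. The study's methods state that the procedure was repeated in triplicate, without naming separate cultures. The tests therefore cover the spread between these samples alone. Of 4 genes commonly expressed in HEK293 cells, the keratins KRT8 and KRT18 and the filament protein VIM were in both tables and EPCAM was in neither.

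CCR4-NOT is the main cytoplasmic complex that shortens the poly(A) tails of mRNAs, which starts their decay and can also repress their translation. CNOT1 is the scaffold on which the other subunits assemble. CNOT2 and CNOT3 form the NOT module with the C-terminal part of CNOT1, CNOT6 and CNOT6L are the alternative CCR4-type deadenylases, CNOT7 and CNOT8 are the alternative CAF1-type deadenylases, CNOT10 and CNOT11 bind the N-terminal part of CNOT1, and CNOT4 is a RING-type ubiquitin ligase that binds the complex less stably. MicroRNA effectors and RNA-binding proteins such as Tristetraprolin and Nanos recruit the complex to their target mRNAs.

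Occupancy at the start codon was among the measures that differed most between the members, so the start of each CDS is shown here, with the ATG in capitals, 6 bases of the 5′UTR before it and 12 bases of the CDS after it. The sequences were taken from GENCODE transcripts on GRCh37 with the same symbol and CDS length as the transcripts measured.
CNOT1: ccagcaATGaatcttgactcg
CNOT2: gactctATGgtgaggactgat
CNOT3: gggaagATGgcggacaagcgc
CNOT4: gtgaagATGtctcgcagtcct
CNOT6: ctgtgcATGcccaaagaaaaa
CNOT6L: aagagaATGagactaataggg
CNOT8: ttcaggATGcctgcagcactt
CNOT10: gggaagATGgctgcagacaag
CNOT11: aggttgATGcccggcggaggg
A or G stood 3 bases before the ATG in 6 of these 9 mRNAs, against 85.8% of 8572 transcripts, and CNOT2, CNOT6 and CNOT11 were the exceptions. The base that follows the ATG was G in CNOT2, CNOT3 and CNOT10, against 53.2% of all matched transcripts.

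Translational efficiency, the deposited ratio of RPFs to total RNA, spread 6.09-fold over the 8 members measured, from CNOT11 to CNOT8. The median over the members was 0.370, beside 0.385 over all genes. Each member was tested with limma on log2(ratio + 0.01) against the median of all values, and p-values were adjusted over all 8121 genes by the Benjamini-Hochberg method. All 8 members differed from the median, 4 above it (CNOT11, CNOT7, CNOT2 and CNOT6) and 4 below it (CNOT6L, CNOT1, CNOT10 and CNOT8). Of all genes, 89.3% differed, 44.7% upwards and 44.6% downwards, so the number of members called is close to the background and says little about them. Against a margin of more than 2 times (limma treat), CNOT11 was above and CNOT8 below, with a background of 23.3% of genes above and 18.2% below.

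**Figure D1:**
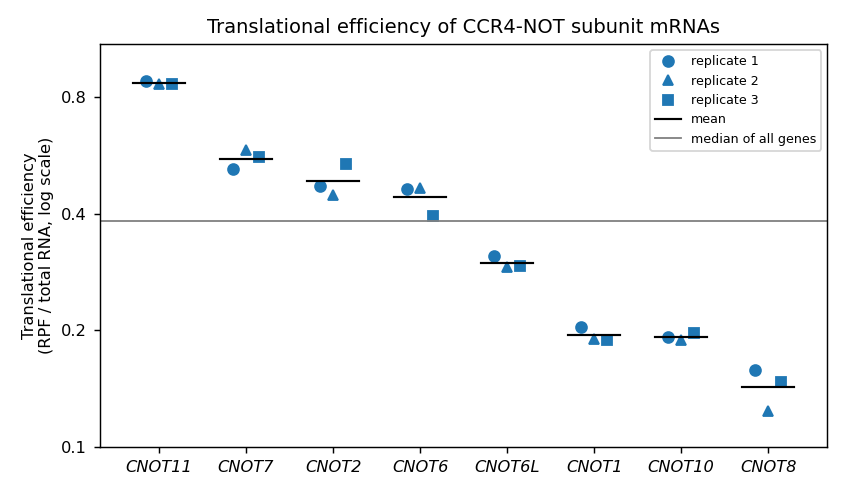
Translational efficiency (RPFs over total RNA, log scale) of the 8 members measured, ordered by their mean. Symbols are the 3 replicates, short bars the means and the grey line the median of all genes. The values of CNOT11 lie between 0.865 and 0.881 and those of CNOT8 between 0.124 and 0.158.

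The scaffold CNOT1 (chr16:58577231-58663742 for the matched GENCODE transcript, minus strand) had translational efficiencies of 0.204, 0.190 and 0.188 in replicates 1 to 3, at percentile 24.3 of all genes. Its log2 difference from the median was −0.95 ± 0.05 (SE, n = 3, limma adjusted p = 3.3e-05). CNOT2 (chr12:70636810-70748773, plus strand), of the NOT module, had 0.472, 0.449 and 0.539, and lay 0.33 ± 0.07 above the median on the log2 scale (SE, n = 3, limma adjusted p = 0.0064). All 3 replicates of CNOT1 were below all 3 of CNOT2.

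Among the nucleases, CNOT6 (chr5:179921507-180005349, plus strand) had values of 0.464, 0.467 and 0.395, close to the median of all genes. Its log2 difference of 0.20 ± 0.07 passed the test (SE, n = 3, limma adjusted p = 0.0414), and the call was lost without replicate 1 (adjusted p = 0.158) or without replicate 2 (adjusted p = 0.178). CNOT6L (chr4:78634541-78740522, minus strand) had 0.312, 0.292 and 0.293, a log2 difference of −0.35 ± 0.05 (SE, n = 3, limma adjusted p = 0.0016). CNOT7 (chr8:17082475-17104366, minus strand) had 0.521, 0.586 and 0.560, which was 0.52 ± 0.06 above the median (SE, n = 3, limma adjusted p = 4.6e-04). CNOT8 (chr5:154238077-154256352, plus strand) had the lowest values of the members, 0.158, 0.124 and 0.147, at percentile 14.99. It was −1.37 ± 0.08 from the median (SE, n = 3), and the limma treat test for more than 2 times gave an adjusted p of 0.0083.

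The replicate ranges of CNOT6 and CNOT6L did not overlap, nor did those of CNOT7 and CNOT8. CNOT6 was 1.46-fold above CNOT6L, a mean log2 difference of 0.55 ± 0.12 (SD, n = 3 replicates), and CNOT7 was 3.71-fold above CNOT8, with 1.89 ± 0.25 (SD, n = 3). The exact two-sided permutation test gave p = 0.1 for each of the 2 pairs compared (adjusted p = 0.1), which is the smallest p that 3 against 3 values allow. The paralogs are alike in protein and less so in codons. Over the aligned stretch, 79.5% of residues and 38.9% of codons were identical between CNOT6 and CNOT6L, and 76.1% of residues and 35.4% of codons between CNOT7 and CNOT8. Reads of CNOT6L and CNOT7 can be shared with pseudogenes, because 54.1% of the 30-base stretches of the CNOT6L CDS occur in CNOT6LP1 and 44.03% of those of CNOT7 in CNOT7P1, CNOT7P2 or a further locus. Both values, and the comparisons that rest on them, are therefore uncertain. In CNOT6L, mean occupancy per codon was 0.0695 where the 30 bases around a codon occur in CNOT6LP1 (295 codons, 884 reads) and 0.0681 where they do not (261 codons, 775 reads). The CDS of each of the other 8 members shared no such stretch with another gene.

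CNOT10 and CNOT11, which bind next to each other on CNOT1, lay far apart. CNOT11 (chr2:101869348-101886778, plus strand) had the highest values of the members, 0.881, 0.865 and 0.865, at percentile 76.3. CNOT10 (chr3:32726637-32815206, plus strand) had 0.193, 0.189 and 0.197. The log2 difference from the median was 1.16 ± 0.05 for CNOT11 (SE, n = 3, limma adjusted p = 1.1e-05) and −0.95 ± 0.05 for CNOT10 (SE, n = 3, limma adjusted p = 2.3e-05). CNOT11 passed the limma treat test for more than 2 times (adjusted p = 0.0247), but not when any 1 of the 3 replicates was left out (adjusted p from 0.0834 to 0.0920).

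In the order of the levels, the replicate ranges of CNOT7 and CNOT2, of CNOT2 and CNOT6, and of CNOT1 and CNOT10 overlapped. The remaining neighbours (CNOT11 and CNOT7, CNOT6 and CNOT6L, CNOT6L and CNOT1, CNOT10 and CNOT8) did not overlap, with ratios of their means between 1.35 and 1.57.

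Genes of proteins that work with the complex ran from 0.0319 to 4.50, a wider range than that of the members. Of 53 such symbols listed, 41 had a translational efficiency, with a median of 0.392, and 18 were above the median of all genes, 18 below it and 5 not called. More than 2 times from the median were 10 above and 9 below. Of all genes, 44.7% were above the median and 44.6% below, and 23.3% and 18.2% by more than 2 times. These counts are therefore close to the background. CNOT9, listed under its older symbol RQCD1 and binding to the middle of CNOT1, had 0.404 ± 0.0107 (SD, n = 3) and was not called, and TNKS1BP1, a further protein found with the complex, had 0.0814 ± 0.00464 and was below the median. Of 7 other deadenylases measured, 3 were higher, 3 lower and 1 not called. PAN2, the nuclease of the PAN2-PAN3 deadenylase, had 0.175 ± 0.0231 (SD, n = 3) and its partner PAN3 had 0.307 ± 0.0324, both below the median.

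Proteins that recruit CCR4-NOT or adapt it to target mRNAs numbered 17 in the table, 8 higher and 9 lower, with a median of 0.229. This group held both extremes, BTG1, an antiproliferative protein that binds the CAF1-type nucleases, at 4.50 ± 0.0182 (SD, n = 3) and RC3H2, a Roquin protein that binds stem-loops in target mRNAs, at 0.0319 ± 0.00358. Of 6 proteins that act on translation or decapping with CNOT1, 2 were higher, 3 lower and 1 not called. Of 9 poly(A)-binding proteins and their partners, 5 were higher, 2 lower and 2 not called. With 44.7% of all genes higher and 44.6% lower, counts in lists this small say little about them. The 3 HEK293 markers in the table, which are not part of the 41, were higher.

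Ribosome occupancy along the mRNA is given per codon, as RPFs of 28 to 30 nt in frame with the CDS, normalized for library size and divided by the mRNA abundance in total RNA (TPM). The 3 replicates are combined in the deposited values. For the 9 members, every value could be written as whole multiples of 3 steps added together (relative tolerance 1e-07). Each step was taken to be what 1 read contributes in 1 replicate, so the reads at each codon could be counted in 3 read classes. The classes were not assigned to replicate numbers, and they serve here as n = 3 for the spread. The 9 mRNAs held 52090 reads in the CDS, from 1502 for CNOT4 to 16225 for CNOT1, and 703 in the 5′UTR.

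Mean CDS occupancy was highest for CNOT3 (chr19:54641478-54659419, plus strand), the subunit that completes the NOT module, at 0.189 ± 0.0153 (SD, n = 3 read classes). This is percentile 94.6 of all transcripts, whose median was 0.0450. CNOT4 (chr7:135046550-135194825, minus strand) followed at 0.0978 ± 0.00192, CNOT6 at 0.0881 ± 0.0106 and CNOT6L at 0.0689 ± 0.00381. CNOT8 had 0.0595 ± 0.00197, CNOT2 0.0520 ± 0.000853 and CNOT11 0.0475 ± 0.000164. The lowest were CNOT10 at 0.0381 ± 0.00311 and CNOT1 at 0.0329 ± 0.000835. Hence 7 of the 9 members lay above the median of all transcripts, and the scaffold lay lowest. The ranges of the read classes overlapped for CNOT4 and CNOT6, and for no other neighbours in this order.

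The ranks by translational efficiency and by CDS occupancy, both of which divide RPFs by mRNA, were not the same. Among the 6912 genes in both tables, CNOT8 was at percentile 14.95 of translational efficiency and 56.7 of occupancy, whereas CNOT11 was at 76.3 and 44.5. CNOT6L (39.4 and 64.3) and CNOT6 (55.0 and 75.2) ranked higher by occupancy as well. CNOT1 was low on both scales, at percentiles 24.3 and 26.3, with its occupancy taken on the short transcript alone. Over all genes the median absolute difference between the 2 percentiles was 14.2, and the Spearman coefficient was 0.688, given as a description over genes that share the same libraries.

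RPFs were spread unevenly along the CDS of several members. CNOT3 held 65.1% of its occupancy in the first of 3 equal segments of the CDS (63.7 to 66.2% over the read classes) and CNOT4 55.3% (51.8 to 58.4%), beside a median of 32.9% over all transcripts. In CNOT11 the last segment held 54.0% (51.0 to 57.0%), and the first 6.45%. CNOT10 held 44.1% in the first segment.

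**Figure D2:**
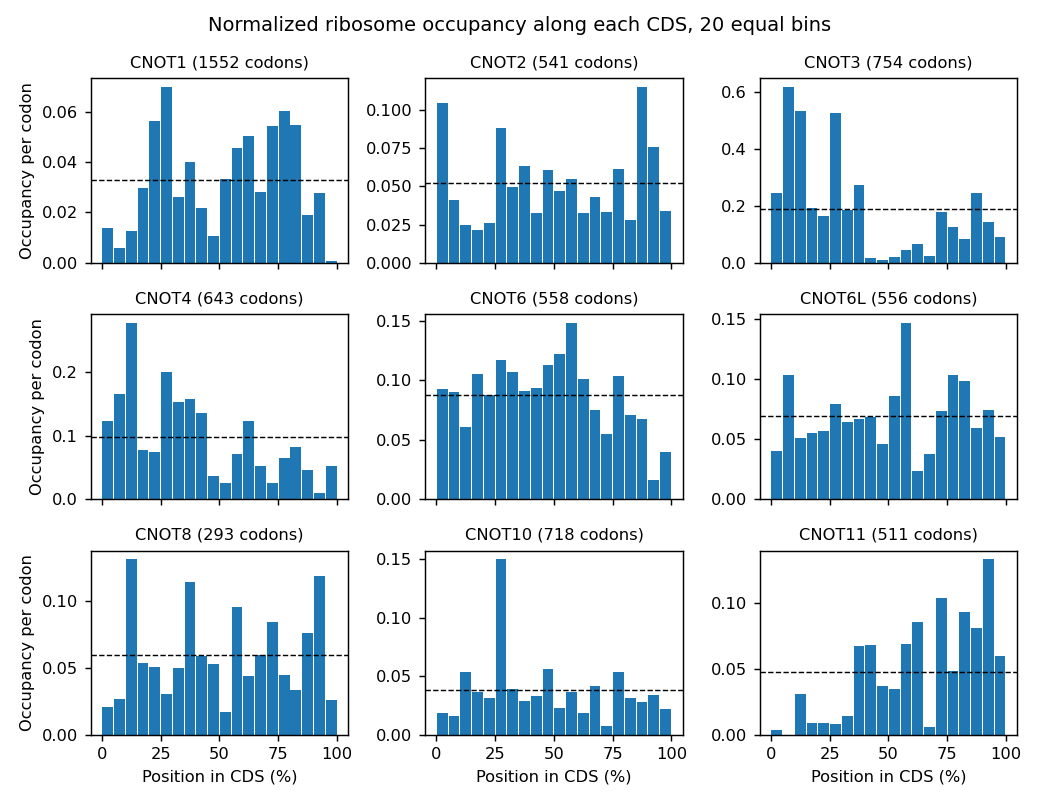
Mean normalized ribosome occupancy per codon in 20 equal bins of the CDS of the 9 members measured, with the mean of the CDS as a dashed line. The vertical scales differ between panels. The first segment of CNOT3 holds 65.1% of its occupancy, and the last segment of CNOT11 holds 54.0%.

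The first and the last 75 codons were compared in each member. In CNOT3 the first window had a mean occupancy of 0.430 ± 0.0573 (SD, n = 3 read classes) and the last 0.129 ± 0.0144, a ratio of 3.33 at percentile 91.3 of all transcripts with a CDS over 450 nt. CNOT4 had 0.136 ± 0.00881 and 0.0268 ± 0.00526, with a ratio of 5.07 (percentile 95.4) from 243 and 50 reads. CNOT6 had 0.0735 ± 0.0147 and 0.0425 ± 0.00676, with a ratio of 1.73 (percentile 75.2). In these 3 mRNAs every read class of the first window was above every class of the last. How often the classes separate over all transcripts was not computed, so such separation is given as a description only.

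CNOT11 showed the opposite order, with 0.0118 ± 0.00146 at the start and 0.0911 ± 0.00847 at the end (SD, n = 3 read classes). Its ratio of 0.130, from 169 and 1321 reads, was at percentile 4.51. CNOT10 had 0.0177 ± 0.00496 and 0.0264 ± 0.00181, and there too the classes did not overlap, with a ratio of 0.668 at percentile 33.2. CNOT2 had 0.0599 ± 0.00359 and 0.0781 ± 0.00252, but with windows of 50 codons the first window was the higher one (0.0721 against 0.0570). The classes of the windows overlapped for CNOT6L (0.0676 ± 0.0143 and 0.0629 ± 0.00523) and for CNOT8 (0.0568 ± 0.00123 and 0.0632 ± 0.00638).

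**Figure D3:**
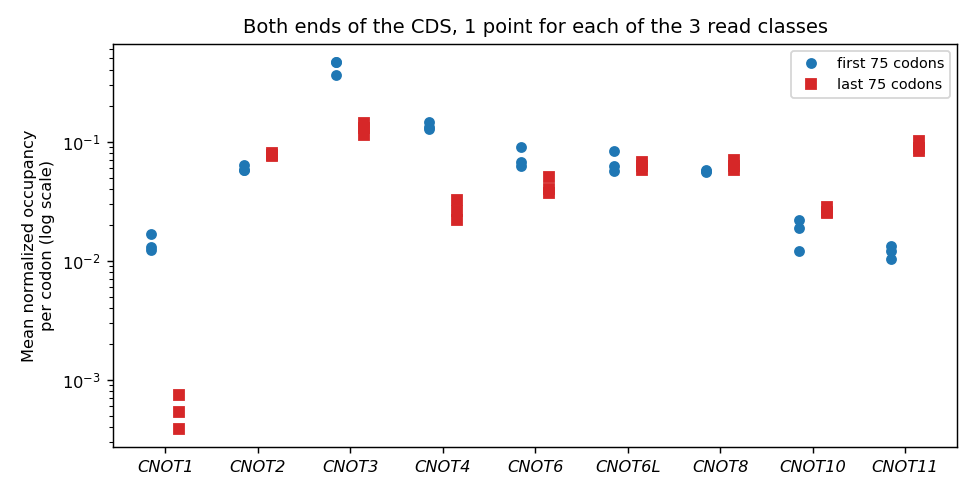
Mean normalized occupancy per codon (log scale) in the first 75 codons (circles) and the last 75 codons (squares) of each member, with 1 point for each of the 3 read classes. CNOT3 and CNOT4 are higher in the first window and CNOT11 in the last, and the low last window of CNOT1 lies almost wholly in codons of a short isoform.

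CNOT1 had the most extreme ratio of the members, 25.4 (percentile 99.6), and it rested on the transcript used. The table holds a CNOT1 transcript of 1552 codons, while the MANE Select transcript has 2377. The 2 share 1478 codons, the last 74 codons of the table's transcript (1479 to 1552) are not shared, and 899 codons of the MANE Select transcript have no value. Mean occupancy was 0.0345 over the shared codons and 0.000564 over the others, a 61.2-fold difference (46.7 to 84.8 over the read classes) from 16212 and 13 reads. When the last window was moved to the last 75 shared codons (1404 to 1478), an alternative chosen after the data were seen, it had a mean of 0.0262, and the ratio became 0.540 (0.437 to 0.662), so the order of the windows turned around. The part of the CNOT1 protein that binds CNOT2 and CNOT3 is encoded in the 3′ part of the MANE Select CDS, where no occupancy was given.

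**Figure D4:**
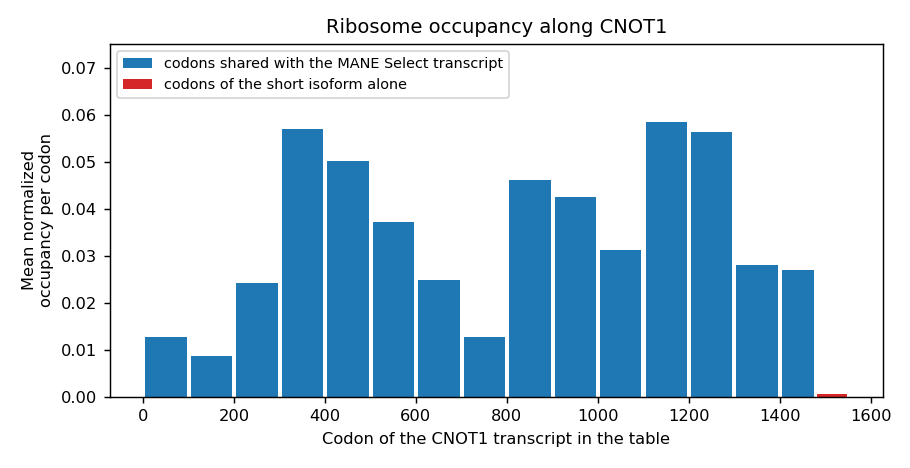
Mean normalized occupancy per codon in bins of 100 codons along the CNOT1 transcript in the table, with the codons shared with the MANE Select transcript in blue and the codons of the short isoform alone in red. The shared bins lie between 0.00866 and 0.0584, and the bin of codons 1479 to 1552 has 0.000564.

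CNOT4 and CNOT10 were also measured on transcripts shorter than the MANE Select ones, with 643 against 714 codons and 718 against 745. Of these, 642 and 717 codons are shared with the MANE Select transcript. In the other 6 members with occupancy the CDS had the MANE Select length.

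The highest codon of the CDS was over 10 times its mean in all 9 members, as in 95.8% of all transcripts, whose median was 21.0 times, so this count is at the background. These codons are shown in capitals within 30 bases of CDS, because they hold the largest single shares of reads.
CNOT1 codon 1159: acgctgaagaatCCTgaatttaacaagatg
CNOT2 codon 470: aaccgtgattggAGAtaccacaaagaagaa
CNOT3 codon 81: cttatagacaacCGCaagctcattgagacg
CNOT4 codon 78: gagctgcaaaggATAaagaatgagaaaaaa
CNOT6 codon 9: aaatacgagcccCCTgaccctcggaggatg
CNOT6L codon 419: ccagattcaggtGTTgtggaatacttaagc
CNOT8 codon 38: tacagttatattGCCatggacacagaattt
CNOT10 codon 200: aacaacaaagatGGAtctaatcataaagct
CNOT11 codon 436: tgcatctctactTGTgaacagattaaggat
The CNOT1 codon (chr16:58583668-58583670, exon 25 of the transcript) had 38.2 times the CDS mean from 391 reads, and was the highest codon in all 3 read classes. The same held for codon 470 of CNOT2 (chr12:70739976-70739978, exon 16, 23.7 times, 265 reads), codon 81 of CNOT3 (chr19:54647468-54647470, exon 5, 32.1 times, 290 reads) and codon 200 of CNOT10 (chr3:32757741-32757743, exon 6, 23.0 times, 272 reads). Codon 38 of CNOT8 (chr5:154242950-154242952, exon 2, 18.5 times, 197 reads) and codon 419 of CNOT6L were highest in 2 classes. In CNOT4, CNOT6 and CNOT11 the codon shown was highest in 1 class, so their order is not settled at this depth.

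The deadenylase paralogs CNOT6 and CNOT6L could be compared codon by codon over 550 aligned codons. Of the 10 highest aligned codons in each mRNA, 3 (30% of each list) were the same, and they are shown with the codon in capitals.
CNOT6 codon 421: ccagactctggtGTTgtagaatatttgagc
CNOT6L codon 419: ccagattcaggtGTTgtggaatacttaagc
CNOT6 codon 300: cagaaacacactGTTgaatttaatcagcta
CNOT6L codon 300: cagaagcatacaGTGgaatttaaccaagtg
CNOT6 codon 430: agcacaggtggaGTAgaaacaaatcacaaa
CNOT6L codon 428: agcaatggaggaGTAgctgacaaccataaa
The first of these pairs had occupancies of 1.103 in CNOT6 (75 reads) and 1.03 in CNOT6L (44 reads), and the 30 bases differ at 5 positions. The second pair had 0.814 and 0.553, with 8 differences, and the third 0.501 and 0.592, with 10. The 30 bases around codon 419 of CNOT6L also occur in CNOT6LP1, and those around codons 300 and 428 do not.

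Other codons were high in one paralog and low or at 0 in the other. Codon 9 of CNOT6 had 1.23 (80 reads) and its counterpart, codon 14 of CNOT6L, 0.154 (7 reads). Codon 125 of CNOT6 had 0.839 from 54 reads where CNOT6L had 0 reads, and codon 470 of CNOT6L had 0.664 from 30 reads where CNOT6 had 0. The 30 bases around codon 14 of CNOT6L and around codon 130, the counterpart of codon 125 of CNOT6, also occur in CNOT6LP1, and those around codon 470 do not. A count of 0 allows up to 3 reads. Across the aligned codons the Pearson coefficient was 0.311 and the Spearman coefficient 0.202, a weak relation given as a description.

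**Figure D5:**
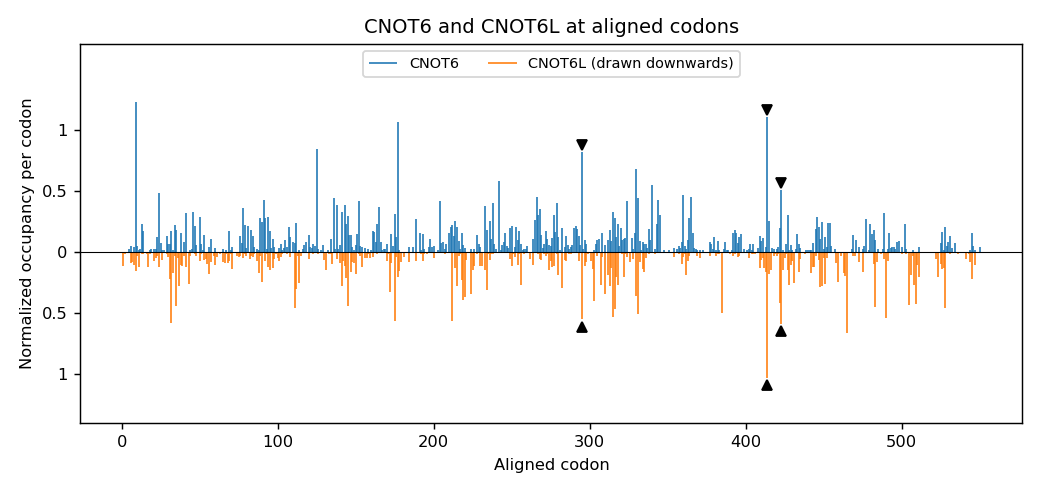
Normalized occupancy at each of 550 aligned codons of CNOT6 (upwards) and CNOT6L (downwards). Arrowheads mark the 3 codons that are among the 10 highest of both mRNAs, of which the highest has 1.103 in CNOT6 and 1.03 in CNOT6L.

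The start codon itself carried very different shares of the reads. In CNOT4 its occupancy was 19.8 ± 0.636 times the CDS mean (SD, n = 3 read classes, 46 reads), in CNOT2 14.1 ± 1.58 times (157 reads) and in CNOT10 6.90 ± 3.01 times (85 reads), beside a median of 0.286 over all transcripts. CNOT1 had 1.08 ± 0.150 times (11 reads) and CNOT8 0.644 ± 0.254 times (7 reads). CNOT3 had 3 reads at the start codon and CNOT11 had 1. No read was found there in CNOT6 or CNOT6L, of 3422 and 1659 reads in the CDS, which allows a share of up to 0.0877% and 0.181%. CNOT4 and CNOT10 have A 3 bases before the ATG and CNOT2 has T, as the sequences above show. CNOT3, CNOT6L and CNOT8, with few or no reads at the start codon, have A there too. CNOT1 has G, and CNOT6 and CNOT11 have T.

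In the 5′UTR, the in-frame occupancy of 8 of the 9 members was above the median of all transcripts. Mean 5′UTR occupancy per codon was 18.1% of the CDS mean in CNOT1, 13.6% in CNOT8, 12.4% in CNOT6L, 10.4% in CNOT4, 7.26% in CNOT3, 6.61% in CNOT2, 5.79% in CNOT10 and 4.65% in CNOT6, and the median of all transcripts was 2.86%. CNOT11 had no read over 24 codons, which allows up to 3. The CNOT6L value rests on 9 reads and that of CNOT4 on 26.

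Most of these reads lay beyond a stop codon in the frame of the CDS. Stops, ATGs and open reading frames were read from the matched GENCODE transcripts. Their 5′UTRs differ in length from those measured (285 nt against 107 codons in CNOT1), so the upstream sequence may not be the same throughout. In CNOT1 the last such stop was 15 codons before the ATG, and 202 reads lay upstream of it and 2 downstream. In CNOT8 the stop was 12 codons before the ATG, with 162 reads upstream and 9 downstream. CNOT2 was more even, with 63 and 45 reads, but 30 of the 45 were at the codon directly before the ATG. No in-frame ATG was found between that stop and the start codon of any of the 7 mRNAs with such a stop. In CNOT10, 43 of its 71 reads lay in an in-frame upstream open reading frame of 22 codons, the only such frame found in the 5′UTRs of the 9 transcripts, and 30 of them were at 1 codon, 65 codons before the ATG.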

How the data were processed

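According to the study's methods, adapters, unique molecular identifiers and PCR duplicates were removed, RPFs were aligned to the hg19 transcriptome, and reads of 28 to 30 nt were placed with an offset of 13 nt. The submitters' processing notes list cutadapt 1.16, Bowtie 1.1.2, TopHat2 2.1.1 and HTSeq 0.9.1, while the methods name Hisat2 for total RNA. The most abundant transcript of each gene was used. The authors deposited translational efficiency as a linear ratio per replicate, for which the sources used here state no formula. Since the deposited occupancy values combine the replicates, read numbers come from the steps described above, and the mapped reads per library that the methods state were not used here. PCR duplicates had been removed, and read intervals and limits cover counting error only.

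Ratios were tested with limma 3.58.1 in R 4.3.3 (pseudocount 0.01, no filter, FDR 0.05, log2 threshold of 1 for treat). RPF and total RNA libraries share a lysate, and the ratio of each numbered replicate was assumed to be taken within it. Coordinates and sequences came from GENCODE 44 lifted to GRCh37, where 90.3% of transcripts matched with a single CDS sequence. The coordinates of each member are those of its GENCODE transcript, and its ends can differ from those of the transcript measured. Protein pairs were aligned with BLOSUM62 in Biopython 1.88 under Python 3.11.15. The members and gene lists were chosen with earlier results of these data known. All 10 members are named, and of the other lists CNOT9, TNKS1BP1, PAN2, PAN3, PARN and the highest and lowest gene. No promoter was printed, because the data do not bear on promoters.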

Additional observations from a re-analysis of the deposited data

Results flagged for a closer look

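CNOT6 had 5 in-frame reads in its 3′UTR of 1409 codons, which the comparisons above do not use. Its CDS had 3422 reads. CNOT8 had 3 reads in a 3′UTR of 461 codons and CNOT2 had 2 in 367 codons, and the other 6 members had 0. Of these 3 mRNAs, CNOT6 thus had the most reads but the fewest per codon of 3′UTR. No control sample exists for this measure, and its source was not tested.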

How the results depend on the processing

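Of 46 values that answer a comparison under another setting, 39 kept their direction and call, or for counts stayed within 1.5 times, and 7 moved. Of 157 values of single members 127 kept theirs or moved by less than the replicate spread, 19 moved by more, 11 were no longer past the threshold and 0 called values changed direction. The untested order of the windows turned around for CNOT2 with windows of 50 codons and for CNOT1 with the shared codons, as given above. The number of members called against the median, 8 with the main settings, was 7 with a minimum mean ratio of 0.05 and without replicate 1 or 2, and 6 with the mean of all values as reference, which lies 0.17 above the median on the log2 scale. The genes over 2 times from the median numbered 2499 with a pseudocount of 0.1, in place of 3365. The number of members over 2 times from the median, 2 with the main settings, was 0 with a pseudocount of 0.1 (CNOT11 at 1.01 and CNOT8 at −0.99 on the log2 scale), 1 with the mean of all values as reference (CNOT8) and from 1 to 1 when replicates were left out in turn (CNOT8 each time). The median 5′UTR occupancy of the members, 7.26% of the CDS mean, became 5.82% without the highest 5′UTR codon and 17.6% over the last 17 codons of the 5′UTR. CNOT6 was not called against the median with a minimum mean ratio of 0.05 (adjusted p = 0.0539, limma) or with the mean as reference (0.684), and CNOT2 was not called with that reference (0.0671). With a replicate block, in which each replicate was centred on its own median, the calls remained 8 and 2 of the members, and 7265 and 3375 of all genes in place of 7249 and 3365. Paired within replicates as a block, the paralog differences reached p = 0.25 in the exact sign-flip permutation test, the smallest that 3 pairs allow. Depth limits CNOT4 and CNOT6L most, where the read classes correlated least over codons (0.613 for the lowest pair).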

Other observations

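CNOT9 (RQCD1), which was not among the members, had 4163 in-frame reads in its CDS and a mean occupancy of 0.0343 ± 0.00205 (SD, n = 3 read classes). Its first 75 codons had 0.0487 ± 0.00452 and its last 75 codons 0.0326 ± 0.00219, and the read classes did not overlap. The highest codon was codon 171, at 17.7 times the CDS mean, and was highest in all 3 read classes. TNKS1BP1 had its highest codon at the start codon, at 37.1 times the CDS mean. PARN, a poly(A)-specific ribonuclease without a translational efficiency here, had a mean CDS occupancy of 0.0565, beside 0.0326 for PAN2 and 0.0335 for PAN3, all as values that combine the replicates.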
